A study of Mus musculus and Macaca mulatta with 39 samples.

Results

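This account covers 2441 loci of the mouse genome that carried H3K27ac in embryonic cortex at E17.5 and in neither of the earlier stages. H3K27ac regions of 8 lists were merged into loci wherever they overlapped or touched, which gave 133378 autosomal loci. A locus was retained when each of the 4 lists of E17.5 held a region there and none of the 4 lists of E11.5 and E14.5 did. The 2441 loci make up 1.83% of all autosomal loci and 5.95% of the 41043 loci called in all 4 E17.5 lists. The loci were selected on their H3K27ac calls, so their H3K27ac values are given as a description with no test. H3K4me2 was precipitated separately and played no part in the choice.

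The study profiled developing cortex of mouse and rhesus by chromatin immunoprecipitation and sequencing (ChIP-seq). The mouse tissues used here came from C57BL6J embryos of timed pregnant females and were frontal cortex at E17.5, occipital cortex at E17.5, cortex at E14.5 and cortex at E11.5 (embryonic days). Each tissue had 2 biological replicates, and in each replicate both marks were precipitated and shared an input. The tissues were dissected and mixed in cell type, so a locus marked in more cells and a locus marked more strongly per cell cannot be told apart.

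H3K27ac, an acetylation of lysine in the tail of histone H3, is placed by the acetyltransferases p300 and CBP and is found at promoters and enhancers in use. H3K4me2, where a different lysine of that tail carries a pair of methyl groups, is spread more widely over both kinds of element, and an enhancer that carries H3K4 methylation without H3K27ac is often called primed or poised. In mouse cortex, neurogenesis is under way at E11.5 and E14.5 and is near its end at E17.5, when young neurons migrate, extend axons and mature and when glial cells begin to be made.

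The deposited lists hold region positions only, taken here as mm9, the mouse build named in the submitters' processing notes, with no read count or score, so the depth is unknown and length covered by regions stands in for signal. The 4 E17.5 H3K27ac lists covered 126 to 168 Mb of the autosomes and the 4 earlier ones 61.1 to 140 Mb. The E17.5 H3K4me2 lists covered 87.2 to 158 Mb and the earlier ones 63.5 to 108 Mb. The longest H3K4me2 list was that of E17.5 occipital replicate 2, with 74660 autosomal regions. No gene positions on mm9 were used, so loci are given by position, promoters were not separated from distal sites, and the labelled tissue was not checked against marker genes.

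The loci acetylated only at E17.5 were intermediate in width. Their median width was 2100 bp, and the middle 80% spanned 1124 to 4399 bp, against a median of 1124 bp over all 133378 autosomal loci. Loci gained by E14.5 and kept, called in both E14.5 and all 4 E17.5 lists but in no E11.5 list, had a median width of 3250 bp (n = 4732), as did the loci called in all 8 lists (n = 22833). The loci called in both lists of E11.5 alone (n = 744) and of E14.5 alone (n = 470) had medians of 1037.5 and 950 bp. A width of at least 5000 bp was reached by 151 of the E17.5-only loci (6.19%), against 1101 (23.3%) of those gained by E14.5 and 6659 (29.2%) of those in all 8 lists. Only 7 E17.5-only loci were at least 10000 bp wide. These widths are of the merged locus, which grows with the number of lists that contribute to it.

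**Figure D1:**
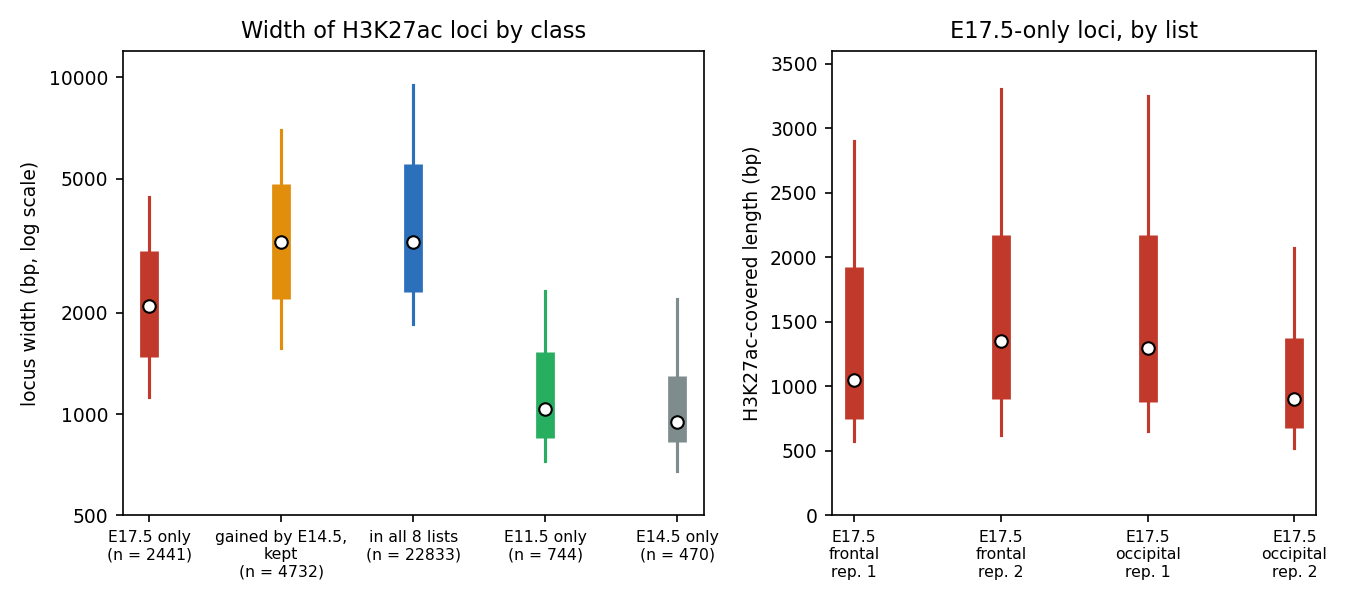
Left, width in bp (log scale) of H3K27ac loci in 5 classes, E17.5-only loci first; right, H3K27ac-covered length in bp of the 2441 E17.5-only loci in each E17.5 list. Circles are medians, thick bars the 25th to 75th percentile and thin lines the 10th to 90th percentile; the E17.5-only median of 2100 bp lies under the 3250 bp of the 2 classes after it, and occipital replicate 2 has the lowest median coverage, 900 bp.

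Within a list the acetylated stretch was shorter still than the locus. The median locus was covered over 1050 bp in frontal replicate 1, 1350 bp in frontal replicate 2, 1300 bp in occipital replicate 1 and 900 bp in occipital replicate 2. The medians thus differed between the replicates of an area, and frontal replicate 2 had the longest coverage at 879 loci against 339 for occipital replicate 2. In 2115 loci (86.6%) every E17.5 list held a single region. The bases called in all 4 lists at once came to a median of 525 bp, or 24.5% of the width. At 410 loci no base was common to all 4, as regions were merged in chains of overlaps. The coefficient of variation of covered length over the 4 lists had a median of 38.7%. In all, the loci took up 3.02% to 3.56% of the regions of an E17.5 list and 2.17% to 2.74% of its length.

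The loci with the greatest H3K27ac coverage show how unevenly the lists contributed. The first lies at chr13:57262202-57276350 and was covered over 9500 and 12750 bp in frontal cortex and over 9650 and 1350 bp in occipital cortex. A locus at chr3:117839176-117850650 was covered over 6650 and 11475 bp in frontal cortex and 8725 and 2475 bp in occipital cortex. The locus at chr10:98934177-98946850 was covered over 4500 and 10975 bp in frontal cortex and 12175 and 1175 bp in occipital cortex. In each of these 3 loci occipital replicate 2 was the lowest list, and the 2 areas overlapped. Coverage was more even at chr9:103744226-103752750, with 8200 and 8525 bp in frontal cortex and 7375 and 4700 bp in occipital cortex. A second chromosome 9 locus, chr9:112921526-112931950, was covered over 7250 and 8850 bp in frontal cortex and 8850 and 3850 bp in occipital cortex. The mean over the 4 lists ran from 8312.5 ± 4877 bp at the chromosome 13 locus to 7200 ± 1736 and 7200 ± 2357 bp at the 2 loci of chromosome 9 (SD, n = 4).

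At the other end, many loci met the rule by the shortest region a list contains. At 421 loci (17.2%) the lowest of the 4 E17.5 values was 500 bp, and 250 loci stayed under 1000 bp in every E17.5 list. The least covered lies at chr4:13331651-13332326, with 550 and 550 bp in frontal cortex and 500 and 550 bp in occipital cortex. Loci at chr2:112374552-112375400 and at chr19:40623426-40624276 were covered over 500 to 650 bp and 500 to 750 bp. The chromosome 2 locus nonetheless held H3K4me2 over its full 849 bp in 6 of the 8 lists, all 4 of E17.5 among them, over 825 bp in E14.5 replicate 2 and over 0 bp in E11.5 replicate 1, while the other two held none in any list. At the upper end, 69 loci had at least 2000 bp in each of the 4 lists.

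Loci just outside the rule were more numerous than those inside it. A further 4864 loci were found in 3 of the 4 E17.5 lists and no earlier one, with a median width of 1475 bp, and 2492 of these were missed only by occipital replicate 2. Another 3715 loci had regions in the 4 E17.5 lists and in exactly 1 earlier list, which was an E14.5 list for 3303 of them, with a median of 825 bp covered in the earlier list. The membership depended on the regions and lists admitted. With every list cut to the same number of its widest regions, 916 loci met the rule, and 412 of the 2441 overlapped one of them. With regions of at least 1000 bp alone the number was 1581, and 371 of the 2441 overlapped one. Without E14.5 replicate 1, the longest of the earlier lists, 5129 loci met it, and without occipital replicate 2, 4946 did.

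Many of the loci lay within a few kb of sequence acetylated earlier. The nearest H3K27ac region of any E11.5 or E14.5 list was a median of 7050 bp away. It lay within 5000 bp for 967 loci (39.6%) and beyond 50000 bp for 178 (7.29%). This distance was not measured for other classes of loci, so these shares have no level to be set against. Loci called in all 8 lists are only some of the sites acetylated earlier, so a longer distance to them was largely given beforehand. They lay at a median of 39725 bp from the E17.5-only loci, against 25200 bp from the loci gained by E14.5 and kept. At 3 loci the gap to an earlier region was 1 bp, in lists whose starts differ by 1 bp on the 25-bp grid of region starts.

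The loci were found on every autosome. Their share of the loci called in all 4 E17.5 lists was highest on chromosomes 16 (116 of 1404, 8.26%) and 9 (192 of 2419, 7.94%), and lowest on chromosomes 19 (52 of 1119, 4.65%) and 11 (123 of 2584, 4.76%). Among loci called in all 4 E17.5 lists, 13.9% of the neighbours of an E17.5-only locus were E17.5-only themselves, against 5.95% of all such loci. For the loci gained by E14.5 the corresponding shares were 16.9% and 11.5%. Chaining of loci that lay at most 50 kb apart placed 672 of the 2441 (27.5%) into 286 clusters, of which 219 were pairs and 67 held at least 3 loci. Linking at 20 kb placed 348 in clusters and linking at 100 kb placed 1016. Among the loci gained by E14.5 and kept 41.8% were in clusters at 50 kb, and among those in all 8 lists 79.1%, both more numerous classes. These shares are a description, with no chance level computed.

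The most populous cluster, at chr9:112921526-113041925, held 8 of the loci in 120400 bp. Its loci had a median width of 5337.5 bp, and together they were covered over 22525 and 28025 bp in frontal cortex and 29000 and 13225 bp in occipital cortex. They made up 8 of the 10 loci within it that were called in every E17.5 list, and none of the 10 was called in all 8 lists. A cluster at chr13:59429251-59592426 held 7 loci in 163176 bp, covered over 15475 and 12200 bp in frontal cortex and 17500 and 15775 bp in occipital cortex. Another at chr9:47806576-47935801 also held 7, with a median width of 1750 bp and covered over 11050 and 12525 bp in frontal and 8850 and 9100 bp in occipital cortex. The densest of these clusters packed 6 loci into 59775 bp at chr4:127214351-127274125. It was covered over 12500 and 13100 bp in frontal cortex and 14650 and 7950 bp in occipital cortex. The fifth, at chr2:7298801-7442000, held 5 loci, covered over 8475 and 15175 bp in frontal and 13275 and 5675 bp in occipital cortex.

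**Figure D2:**
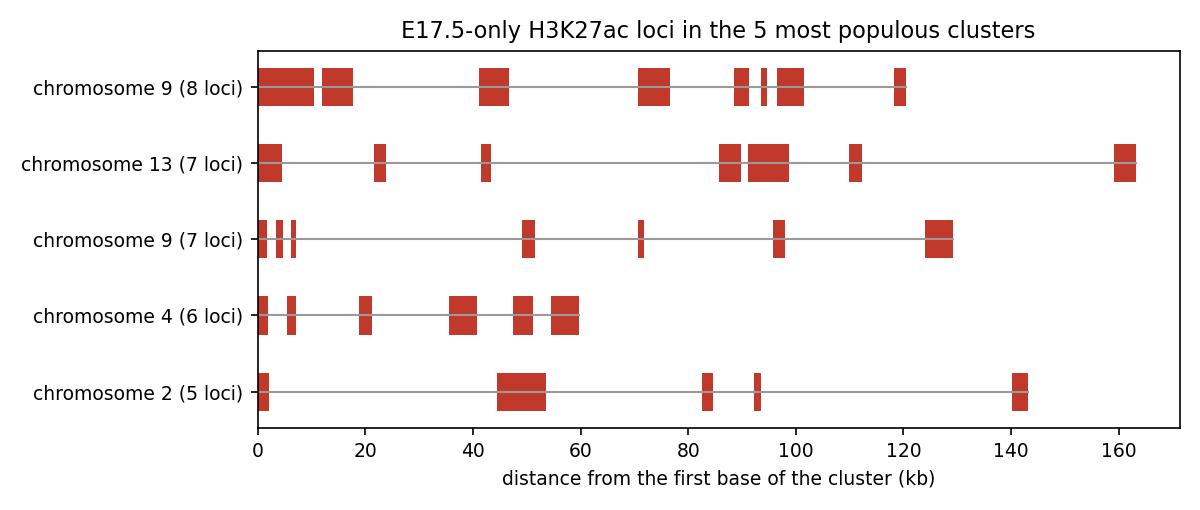
The 5 clusters with most E17.5-only loci, each a row, with distance from the first base of the cluster in kb on the x axis and each locus drawn to scale as a red bar. The clusters hold 8, 7, 7, 6 and 5 loci, and the 6 loci of the chromosome 4 cluster lie within 59775 bp.

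Before E17.5, H3K4me2 was called at few of these loci. At least 1 bp of an H3K4me2 region overlapped 2.99% and 9.95% of the 2441 loci in the E11.5 lists and 4.06% and 9.87% in the E14.5 lists. The E17.5 lists held H3K4me2 at 34.5% and 25.2% in frontal cortex and at 37.9% and 66.0% in occipital cortex. Each E17.5 list was above every earlier list, and the share averaged 6.47 ± 4.92% at E11.5 (SD, n = 2), 6.96 ± 4.11% at E14.5 (n = 2) and 40.9 ± 17.6% at E17.5 (n = 4). List length differed too, with 67.0 and 108 Mb covered at E11.5, 63.5 and 92.2 Mb at E14.5, 102 and 87.2 Mb in frontal and 109 and 158 Mb in occipital cortex, and its part in these shares was not separated. With each H3K4me2 list cut to the same number of its widest regions the shares were 2.56%, 4.04% and 13.7% at the 3 stages. Where H3K4me2 was present it covered a median of 800 to 1100 bp of the locus, depending on the list.

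Classes of H3K27ac loci that were acetylated before E17.5 and kept had another course. Loci gained by E14.5 and kept held H3K4me2 at 21.5 ± 12.7% at E11.5, 39.6 ± 17.1% at E14.5 and 70.0 ± 13.7% at E17.5. Loci called in all 8 lists held it at 89.6 ± 6.03%, 88.5 ± 6.40% and 92.9 ± 3.44%. Over all 133378 autosomal loci the shares were 26.8 ± 6.69%, 25.5 ± 5.49% and 35.1 ± 7.62%. The E17.5-only loci were thus under the average locus in each of the 4 earlier lists. At E17.5 they were above it in frontal replicate 1 (34.5% against 32.1%) and in both occipital lists (37.9% against 34.3% and 66.0% against 45.9%). In frontal replicate 2 they were under it, at 25.2% against 28.2%. That average includes loci called in a single list. Of all 41043 loci called in every E17.5 list, 92.6% had H3K4me2 in at least 1 E17.5 list and 78.1% in at least 1 earlier list, against 70.0% and 15.4% of the E17.5-only loci among them. Of loci acetylated in 3 of the 4 E17.5 lists and no earlier one, 11.3% had earlier H3K4me2. It was found at 10.2% of those in 2 such lists and no earlier one. A low share of earlier H3K4me2 was thus not particular to the E17.5-only loci.

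**Figure D3:**
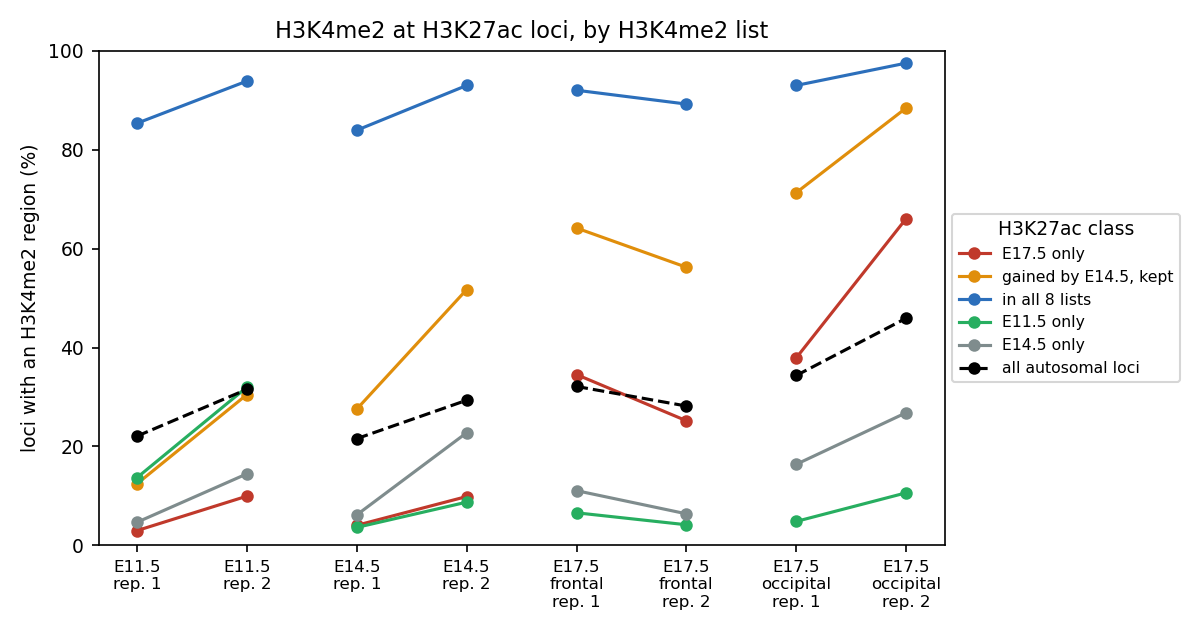
Share of loci (%) overlapped by an H3K4me2 region in each of the 8 H3K4me2 lists, for 5 classes of H3K27ac loci and for all autosomal loci; lines join the 2 replicates of a tissue. E17.5-only loci lie between 2.99% and 9.95% in the earlier lists and between 25.2% and 66.0% in the E17.5 lists.

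Taken locus by locus, 2066 of the 2441 (84.6%) had no H3K4me2 region in any earlier list and 375 (15.4%) had one in at least 1. At 209 of these 375 a single earlier list held it, both E11.5 lists held it at 64 loci, both E14.5 lists at 79 and all 4 at 34. Among the loci gained by E14.5 and kept, 59.1% had H3K4me2 in at least 1 E11.5 or E14.5 list and 8.75% in all 4. In the loci called in all 8 lists, those shares were 96.7% and 79.2%. At E17.5, 444 of the E17.5-only loci (18.2%) had H3K4me2 in all 4 lists, 1265 (51.8%) in 1 to 3 and 732 (30.0%) in none. Single lists weighed on the middle group, since 494 loci had H3K4me2 in occipital replicate 2 and in no other list.

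Combining both periods, 708 loci (29.0%) carried H3K27ac at E17.5 with no H3K4me2 region in any of the 8 lists. At 219 loci (8.97%) H3K4me2 was absent from every earlier list and present in all 4 E17.5 lists. Of the 375 loci with earlier H3K4me2, 24 had none at E17.5 and 225 had it in all 4 E17.5 lists. All 34 loci with H3K4me2 in every earlier list had it in every E17.5 list, and so in all 8. Their median width was 1325 bp, against 2376 bp for the 219 loci that had H3K4me2 in the 4 E17.5 lists only and 1962.5 bp for the 708 with none.

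**Figure D4:**
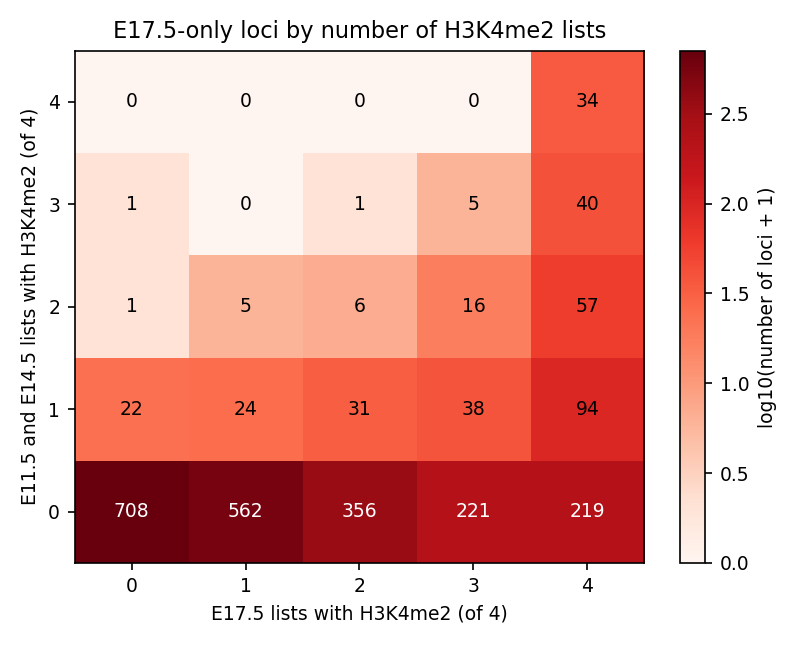
Number of E17.5-only loci by how many of the 4 E17.5 H3K4me2 lists (x axis) and of the 4 E11.5 and E14.5 lists (y axis) overlap them; shading follows log10 of the number plus 1. The bottom row, loci with no earlier H3K4me2, holds 708, 562, 356, 221 and 219 loci, and 34 loci have the mark in all 8 lists.

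Earlier H3K4me2 was less frequent at wide than at narrow loci. It was found at 20.9% of the 637 loci under 1500 bp and at 10.6% of the 151 loci of at least 5000 bp. At E17.5 the mean share over the 4 lists was 40.9% and 45.2% in these 2 width bins. By distance to earlier acetylation, earlier H3K4me2 was found at 14.7% of the 967 loci within 5 kb of an earlier H3K27ac region, 14.7% of the 1296 loci at 5 to 50 kb and 24.2% of the 178 beyond 50 kb. Where a locus held no H3K4me2, the distance to the nearest H3K4me2 region was taken. At E11.5 it was a median of 17512 bp away (2188 loci with none in either list), at E14.5 19226 bp (2179 loci) and at E17.5 7675 bp (732 loci with none in 4 lists). It lay within 5 kb for 17.2%, 14.2% and 34.4% of these loci. The nearest region was sought in 2 pooled lists at E11.5 and at E14.5 but in 4 at E17.5, and for different loci. Pooling more lists can only shorten the distance, so the stages cannot be compared by it.

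H3K4me2-covered length was then tested per locus with limma over all autosomal H3K27ac loci called in at least 2 H3K27ac lists and holding H3K4me2 in at least 2 of its 8 lists (50325 loci). Of the 2441 loci, 1149 passed this filter, while 708 had H3K4me2 in no list and 584 in 1. Of the 1149, 796 had no H3K4me2 in any earlier list. These passed the filter only through the E17.5 lists, so they could rise but not fall, and the counts below describe these loci without supporting a direction. Between E17.5 and E14.5, 422 of the 2441 rose and none fell, at a Benjamini-Hochberg adjusted p below 0.05 over all tested loci. At an unadjusted limma p below 0.05, 668 rose and 0 fell. Of all tested loci 9.72% rose and 0.248% fell, and of the 83000 loci before the H3K4me2 filter 5.9% rose and 0.151% fell, against 17.3% of the 2441 upward. The corresponding share was 14.3% of the loci gained by E14.5 and kept and 2.11% of those in all 8 lists. The median tested locus moved by 0.28 on the scale of log2(covered bp + 200), and by -0.12 once covered length was divided by the list's own total. Under that scaling 448 of the loci rose and none fell, where 9.48% of all tested loci rose and 0.560% fell.

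Of the 422 loci that rose, 413 had no H3K4me2 in any earlier list, 224 had it in all 4 E17.5 lists and 179 in both occipital lists but no frontal one. With frontal cortex alone set against E14.5, 214 rose and none fell, where 3.92% of all tested loci rose. Without occipital replicate 2, 791 of the loci were tested, and their median log2 change was 1.71, against 0.122 over all tested loci. Loci with no earlier H3K4me2 passed the filter only through E17.5 here too. The sign of this median was thus fixed in part beforehand and adds no support to a direction. With lists cut to the same number of their widest H3K4me2 regions 396 were tested, of which 158 rose and 8 fell. In that setting 6.53% of all tested loci rose and 2.48% fell.

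The largest increases called were at loci with no H3K4me2 before E17.5 and long stretches of it in all 4 E17.5 lists. They too entered the test only through E17.5, so their adjusted p-values rank them and add no support to their direction. A locus at chr17:3392901-3399050 held 4350 and 4250 bp of H3K4me2 in frontal cortex and 3425 and 4900 bp in occipital cortex, and is listed at 0 bp in the 4 earlier lists (limma adjusted p = 0.000926). At chr9:40257051-40260825, H3K4me2 covered 3750 and 3775 bp in frontal and 3775 and 3775 bp in occipital cortex, the whole locus in 3 of 4 lists, against 0 bp in the earlier lists (adjusted p = 0.000926). The stages did not overlap at either locus. Loci at chr8:79710276-79714025, chr2:65689626-65692576 and chr16:76684476-76688400 held 2925 ± 576, 2850.5 ± 169 and 2600 ± 772 bp at E17.5 and are likewise listed at 0 bp earlier (SD, n = 4; adjusted p = 0.000926, 0.000926 and 0.00171). At these 5 loci H3K27ac covered 4012.5 ± 1843, 2381 ± 1302, 2156 ± 1033, 2050 ± 1031 and 2112.5 ± 1540 bp at E17.5. The calls held in each alternative that gave a value, except that the chr16 locus was not called with lists cut to the same number of widest regions.

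Of the loci with the longest H3K27ac coverage, 3 were called higher for H3K4me2 as well. All 3 were at 0 bp in every earlier list and entered the test only through E17.5. Their adjusted p-values therefore add no support to a direction. At the chromosome 3 locus from 117839176 it covered 1575 and 1300 bp in frontal and 1500 and 2400 bp in occipital cortex, with 0 bp in each earlier list (limma adjusted p = 0.00158 against E14.5). The chromosome 10 locus held 600, 500, 1125 and 3125 bp in the same order of lists (adjusted p = 0.0190), and the chromosome 9 locus from 103744226 held 1250, 1075, 800 and 3400 bp (adjusted p = 0.0348). The last 2 calls were lost with a pseudocount of 1000 bp, with frontal cortex alone, without E11.5 replicate 1 and without any 1 of the E14.5 or frontal lists. The chromosome 9 call was lost also without E11.5 replicate 2, with at least 3 H3K4me2 lists required and with the replicate number as a block (limma adjusted p = 0.0688). In the settings that lost them the adjusted p was 0.0509 to 0.192 and 0.0587 to 0.178. The remaining 2, the chromosome 13 locus and the locus that opens the chromosome 9 cluster, had H3K4me2 in occipital replicate 2 alone, over 850 and 1175 bp, and were not tested.

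A further group already carried H3K4me2 in every earlier list. The one with the longest H3K27ac, at chr3:121150601-121155975, held H3K4me2 over 725 and 1625 bp at E11.5, 901 and 1600 bp at E14.5, 2500 and 1125 bp in frontal and 1475 and 2400 bp in occipital cortex. At chr14:66897127-66900376 the lengths were 2750 and 3201 bp at E11.5, 2775 and 3000 bp at E14.5, 3250 and 3150 bp in frontal and 3250 and 3250 bp in occipital cortex, so that most of the 3250 bp was marked at each stage. H3K27ac reached 3075 ± 2119 and 2500 ± 989 bp at these 2 loci at E17.5. For the loci at chr13:72439126-72442326, chr17:4537751-4542426 and chr11:83229827-83233000, H3K4me2 averaged 2419 ± 71.8, 769 ± 198 and 1694 ± 471 bp at E17.5 (n = 4), against 2238 ± 195, 500 ± 0 and 1375 ± 0 bp at E14.5 (n = 2). None of the 5 passed the test between E17.5 and E14.5, with limma adjusted p of 0.315 to 0.959 and log2 changes of 0.11 to 0.50, against 0.28 for the median tested locus. The chromosome 11 locus passed it without occipital replicate 1 (adjusted p = 0.0295). With covered length divided by the list's total the change turned negative at the loci of chromosomes 14, 13 and 11, and with lists cut to the same number of widest regions at that of chromosome 17.

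**Figure D5:**
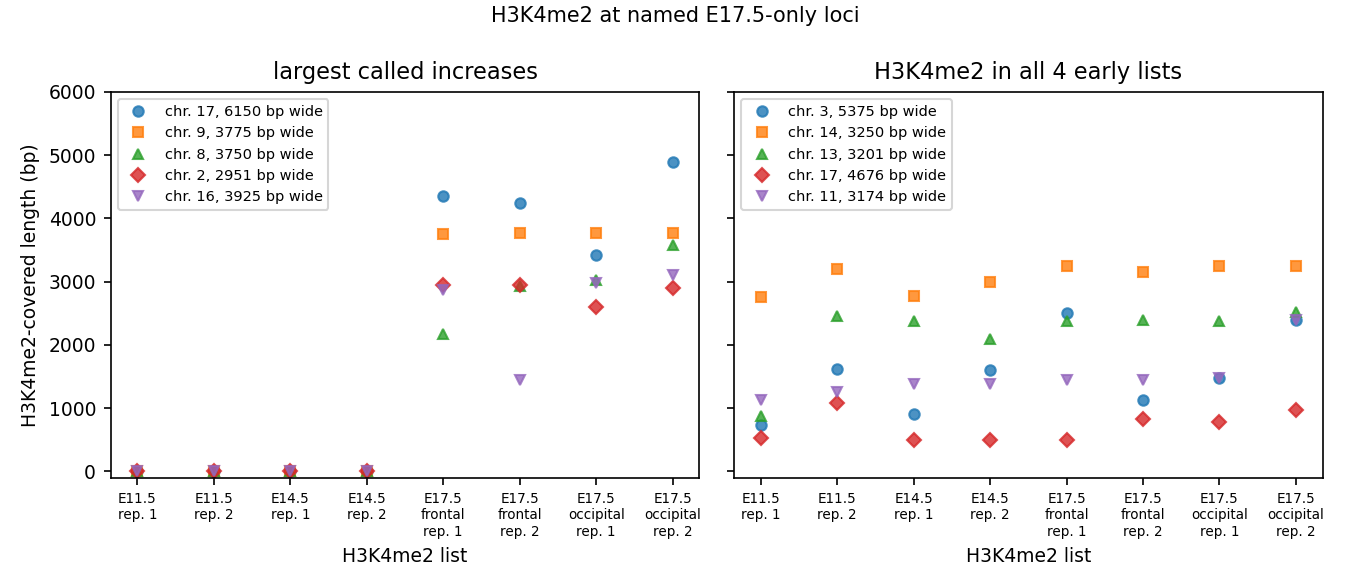
H3K4me2-covered length in bp in each of the 8 H3K4me2 lists for the 5 E17.5-only loci with the largest called increase between E17.5 and E14.5 (left) and the 5 with the longest H3K27ac coverage among those marked by H3K4me2 in all 4 earlier lists (right). The left loci are at 0 bp in every earlier list, while the right loci hold 500 to 3201 bp there.

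At the other extreme, loci with long H3K27ac and no H3K4me2 region in any list were also found. At chr3:143235676-143245450, H3K27ac covered 6175 and 8400 bp in frontal cortex and 9600 and 2500 bp in occipital cortex. The loci at chr9:113110451-113118075 and at chr2:7343226-7352375 were covered over 5544 ± 1473 and 5237.5 ± 3555 bp (SD, n = 4). The last of these lies in the chromosome 2 cluster, where none of the 5 loci had H3K4me2 in any list. No member of the 5 named clusters had H3K4me2 in an earlier list. At E17.5 it was found in at least 1 list at 2 of 8 loci of the first chromosome 9 cluster, 4 of 7 on chromosome 13, 2 of 7 in the second chromosome 9 cluster and 4 of 6 on chromosome 4. All 12 of these loci held it in occipital replicate 2, and the loci of both chromosome 9 clusters held it in that list alone.

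The comparisons with E11.5 share the E17.5 lists with those above. Between E17.5 and E11.5, 468 of the 2441 loci rose for H3K4me2 and 1 fell (limma, adjusted p below 0.05), or 19.2% of them upward. Of all tested loci 14.2% rose and 1.79% fell, and of the 83000 loci before the filter 8.61% rose and 1.09% fell. Of the 468, 424 had no H3K4me2 in any earlier list, so a fall was not possible there. In this comparison the share was higher among the loci gained by E14.5 and kept, at 26.6%, and was 5.28% among those in all 8 lists. With frontal cortex alone 242 rose and 1 fell, where 6.89% of all tested loci rose. Without occipital replicate 2, 303 rose and 3 fell, where 8.92% of all tested loci rose. Between E14.5 and E11.5, 17 of the 2441 loci rose and 2 fell, that is 0.696% upward, against 7.25% of the loci gained by E14.5 and kept. Of the 1149 loci tested, the 796 with no H3K4me2 in any earlier list could not be called here in either direction. This low share was thus largely fixed beforehand and cannot be compared with that of other loci. Of all tested loci 2.3% rose and 1.34% fell, and of the 83000 loci 1.39% rose and 0.81% fell. These few calls moved with single lists, as did those over all tested loci. Without E11.5 replicate 2, 34 loci rose and 4 fell, where 6.16% of all tested loci rose and 0.398% fell. Without E14.5 replicate 1, 62 rose and 3 fell (5.08% and 1.10% of all tested), and without E14.5 replicate 2, 17 rose and 16 fell (2.36% and 5.13%).

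Within E17.5, H3K4me2 at these loci was more often called in occipital than in frontal cortex. Both occipital lists and no frontal list held it at 245 loci (10.0%), and both frontal lists and no occipital one at 19 (0.778%). These counts were not made over all loci. At these loci the share with H3K4me2 averaged 29.9% over the frontal lists and 52.0% over the occipital lists. Over all autosomal loci it averaged 30.2% and 40.1%, and over the loci gained by E14.5 and kept 60.2% and 79.9%. The higher occipital share was thus not particular to these loci, and the occipital lists were longer than the frontal ones. In the test of frontal against occipital cortex 18 loci were higher and 219 lower in frontal cortex (limma, adjusted p below 0.05), where 0.523% of all tested loci were higher and 6.16% lower, and of the 83000 loci 0.317% and 3.73%. Of the 219, 213 had H3K4me2 in both occipital lists and no frontal one, and 217 of the 219 and all 18 higher loci had none in any earlier list. Loci marked in 1 area alone passed the filter only through that area, so their direction was fixed beforehand and the counts are a description. Leaving out a list, or requiring 3, takes loci held by only 2 lists out of the test. Of the 2441 loci 1149 were tested with all lists, 924 without occipital replicate 1, 791 without occipital replicate 2 and 768 with 3 lists required. The counts that follow were thus fixed in part by the filter and cannot test this balance. Without occipital replicate 1, 15 loci were higher and 1 lower, where 0.380% of all tested loci were higher and 0.553% lower. Without occipital replicate 2, 55 were higher and 0 lower (1.19% and 0.293% of all tested), or 95 and 25 at an unadjusted limma p below 0.05. With all lists the median log2 difference of frontal against occipital cortex was -0.504 at these loci, against -0.147 over all tested loci. Without frontal replicate 1 it was -0.842 against -0.213, and without frontal replicate 2 it was -0.276 against -0.0386. Without occipital replicate 1 it was -0.809 against -0.252, and without occipital replicate 2 it was -0.135 against -0.00444. With covered length divided by the list's total it was -0.141 against 0.214. With lists cut to the same number of widest regions it was -0.153 against 0. With H3K4me2 required in at least 3 lists none was called, where 0.023% of all tested loci were higher and 0.231% lower. At an unadjusted limma p below 0.05, 5 were higher and 96 lower. With lists cut to the same number of widest regions 45 were higher and 73 lower (2.51% and 3.58% of all tested).

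Higher in frontal cortex were loci at chr1:190038426-190039900, with 1375 and 1225 bp of H3K4me2 in frontal cortex, against 0 bp in both occipital lists, and at chr2:125339976-125342750 (1075 and 1000 bp, against 0 bp). A second chromosome 2 locus, chr2:163764952-163766526, held 999 and 1050 bp in frontal cortex, against none in occipital cortex (limma adjusted p of 0.000108 to 0.000118 for these 3). Lower in frontal cortex were loci at chr18:34008327-34012825, chr3:85180627-85185325 and chr13:52440126-52444875, each at 0 bp in both frontal lists, against 2275 and 2800, 1725 and 2850, and 1525 and 3025 bp in the occipital lists (adjusted p = 0.000177, 0.00120 and 0.00318). H3K27ac at the chromosome 18 locus covered 1325 and 800 bp in frontal cortex and 900 and 4200 bp in occipital cortex, so that it was long in the second occipital replicate alone.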

How the data were processed

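ChIP-seq regions for H3K27ac and H3K4me2 were deposited by the authors as 1 list per sample, with chromosome, start and end in bp and no score. The aligner named is Bowtie 0.12.9, per the submitters' processing notes, which also list mm9 and hg19. Not given in the sources used here are the region caller and its filters. Gene positions on mm9 were not used here, so loci carry no gene names and the gene lists drawn up were left unused. The 16 mouse lists were used, the rhesus lists and the inputs were not.

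Autosomal H3K27ac regions that touched or overlapped were merged, and the covered length of each locus in each list was taken in bp. H3K4me2-covered length was tested as log2(bp + 200) with limma 3.58.1 in R 4.3.3 (a mean per tissue over all 8 lists, eBayes with a trend, Benjamini-Hochberg adjustment over all tested loci, threshold 0.05), after a check on simulated data. E17.5 is the mean of its 2 areas. The added 200 bp understates changes of short loci, and where a stage is listed at 0 bp no fold is given. Depth is unknown, so no counting intervals were computed. With 2 lists per tissue, p-values rest on 4 residual degrees of freedom, moderated over loci. Where a tissue is listed at 0 bp in both lists, it adds no spread between replicates, as at most named loci with small p-values. Python 3.11.15, numpy 2.4.6, pandas 2.3.3 and matplotlib 3.10.9 were used for the rest. Positions are 1-based.

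The members, gene lists, alternatives and naming rule were chosen with earlier results of these data known. Named are the 5 loci with the longest mean H3K27ac coverage at E17.5, the 5 largest called H3K4me2 increases against E14.5, the 5 longest with H3K4me2 in all 4 earlier lists, the 3 longest with none in any list, the 5 most populous clusters, the 3 largest calls each way between areas and the 3 least covered loci. Replicate numbers were not taken to pair lists of different tissues.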

Additional observations from a re-analysis of the deposited data

Results flagged for a closer look

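Given here are 6 E17.5-only loci, the 3 largest differences called each way between the areas by limma. At each of them H3K4me2 was called in both replicates of 1 area of E17.5 cortex and in no other list. The same pattern was found at 222 of the E17.5-only loci for occipital cortex and at 18 for frontal cortex. Frontal was above occipital cortex on chromosome 1 from 190038426 (adjusted p = 0.000118) and on chromosome 2 from 125339976 (0.000108) and from 163764952 (0.000108). Frontal was below occipital cortex on chromosome 18 from 34008327 (adjusted p = 0.000177), chromosome 3 from 85180627 (0.00120) and chromosome 13 from 52440126 (0.00318). Each entered the test only through the area where it is marked and was picked for its difference, so these p-values describe the loci and do not support a difference between the areas. Leaving out either of its lists takes the locus out of the test.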

How the results depend on the processing

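The number of E17.5-only loci was 2432 with regions up to 1000 bp apart merged, 916 with every list cut to the same number of its widest regions and 1581 with regions of at least 1000 bp, and ranged from 2619 to 5129 without single lists. When an overlap had to cover 50% of the locus, the share with H3K4me2 was 3.20% at E11.5, 3.44% at E14.5 and 20.3% at E17.5. It was 2.56%, 4.04% and 13.7% with H3K4me2 lists cut likewise, and 9.72%, 12.0% and 58.4% among the 916 loci. Without single lists it was 2.99% to 9.95% at E11.5, 4.06% to 9.87% at E14.5 and 32.5% to 46.2% at E17.5.

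For H3K4me2, loci called between E17.5 and E14.5 (422) numbered 216 with at least 3 lists required, 166 with lists cut to the same number of regions, 214 for frontal cortex alone (chosen after seeing the data) and 274 to 469 without single lists. Between E17.5 and E11.5 (469) they numbered 246, 184, 243 and 306 to 514. Between E14.5 and E11.5 (19) there were 11 with a pseudocount of 1000 bp and 14 to 65 without single lists. Between areas (237) there were 0 with 3 lists (5 higher and 96 lower at an unadjusted limma p below 0.05), 118 with cut lists and 16 to 283 without single lists. Requiring more lists or leaving one out removes loci held by 2 lists; otherwise the cause was not tested. The replicate block gave 384, 427, 13 and 225 calls in these comparisons, where 8.88%, 14.6%, 2.74% and 6.15% of all tested loci were called. Same-numbered deviations correlated at -0.0795 to 0.288 between tissues, so the numbers were not taken to pair lists. Changes between E17.5 and E14.5 that were not called turned to -0.35, -0.39, -0.25 and -0.42 with scaled length at loci on chromosomes 14 (66897127), 13 (72439126), 11 (83229827) and 2 (112374552), and to -0.90 with cut lists on chromosome 17 (4537751). With region lists alone, a region missed for lack of reads cannot be told apart from a site without the mark.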
